A study of Homo sapiens with 6 samples.

Results

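The genes described here are CNTNAP2, RBFOX1, OPRD1, SLC6A9, CHD5 and CAMTA1, 6 genes known mainly for roles in the nervous system. They were chosen from a list of thymines read as cytosine in a thyroid carcinoma cell line, because each holds a listed site between its annotated ends. They are 6 of 646 annotated genes with a site, and their sites are 6 of the 967 in the table. That they hold a site is how they were chosen, and their C reads are given as a description.

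The series mapped 5-formyluracil in the genome of the established thyroid carcinoma line CAL-62 with 2 libraries in each of 3 groups. Pull-down libraries were enriched with the reagent azi-BIAN and prepared at pH 8.8, at which 5-formyluracil is read as C, or at pH 7.2, at which it is read as T; input libraries had no treatment. All groups shared the cell line and the tetrahydrouridine added during DNA extraction, which limits deamination of 5-formylcytosine. The values used here are those of the 2 libraries at pH 8.8, and C reads at these positions at pH 7.2 and in input were not analysed here. The labels do not state whether the 2 libraries were made from different cultures, so the spread between them may be technical.

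5-Formyluracil arises when the methyl group of thymine is oxidised, for example by reactive oxygen species, and its formyl group can be tagged chemically. It can pair with guanine as well as adenine, and base excision repair enzymes remove it. The 6 genes act at different levels of the nervous system: cell adhesion along the axon (CNTNAP2), signalling and transport at the membrane (OPRD1 and SLC6A9), and control of RNA, chromatin and transcription (RBFOX1, CHD5 and CAMTA1). Their neuronal role is background knowledge: the files hold no expression values, so neither their activity in CAL-62 nor the thyroid origin of the cells was examined.

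Each of the 6 genes held a single site, and no other annotated gene overlapped any of the 6 positions. Of all 967 sites, 579 lay in exactly 1 gene. The 967 include sites outside genes and the 6 were chosen for lying in one, so the counts have unlike bases. Coordinates are those of hg38, with gene ends from RefSeq (GRCh38.p14), and a site on the minus strand is a T of that strand, listed with the reference base A. Whether a site is exonic or intronic was not analysed here. The shares below are C reads over all reads that cover the site.

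CNTNAP2 encodes CASPR2, an adhesion protein of the neurexin family that holds potassium channels in place along myelinated axons. The gene spans 146116801 to 148420998 of chromosome 7, or 2304.2 kb. Its site at position 148158339, on the plus strand, lay 2041.5 kb downstream of the annotated start and 262.7 kb before the other end, at 88.6% of the gene's length. C was read in 7 of 25 reads in library 1 and in 5 of 21 in library 2, shares of 28.0% and 23.8%. The libraries lay close together, with a mean of 25.9% ± 2.96 (SD, n = 2), and this was the lowest mean among the 6 sites.

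OPRD1 encodes the delta opioid receptor, a G protein-coupled receptor for enkephalins. The gene spans 28812170 to 28871267 of chromosome 1, or 59.1 kb. Its site at position 28858391, on the minus strand, lay 46.2 kb downstream of the start, at 78.2% of the gene's length. C was read in 4 of 18 reads in library 1 and in 4 of 12 in library 2. The share was thus 22.2% in library 1 and 33.3% in library 2 (mean 27.8% ± 7.86, SD, n = 2), and OPRD1 was the only one of the 6 genes with the lower share in library 1.

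SLC6A9 encodes the glycine transporter GLYT1, which clears glycine around synapses and is found largely on glia as well as on some neurons. The gene spans 43996483 to 44031462 of chromosome 1, or 35.0 kb, the shortest of the 6, and is read from the minus strand. Its site at position 44027752, also on the minus strand, lay 3.71 kb downstream of the gene's only listed start, though 16 transcripts are annotated. That was the shortest distance to a listed start among the 5 genes with listed starts. C was read in 5 of 12 reads in library 1 and in 4 of 10 in library 2, shares of 41.7% and 40.0%. The mean of 40.8% ± 1.18 (SD, n = 2) was the highest of the 6 and had the smallest gap between libraries, at the lowest summed coverage (22 reads).

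RBFOX1 encodes a splicing factor that controls exons in neurons and muscle. The gene spans 5239721 to 7713340 of chromosome 16, or 2473.6 kb, and no protein-coding gene of the annotation is longer. Its site at position 6926294, on the minus strand, lay at 68.2% of the span. The start windows used here place 5 starts in RBFOX1, the first of them at 31.5% of the span. They list no start in the part before it, so distances from any start there are not given. The site lay 907.3, 906.6 and 442.9 kb downstream of 3 of them, and 406.6 and 583.8 kb upstream of the other 2, so transcripts from those last 2 starts do not cross it. C was read in 9 of 23 reads in library 1 and in 4 of 17 in library 2. The share was 39.1% in library 1 and 23.5% in library 2 (mean 31.3% ± 11.0, SD, n = 2), the widest gap of the 6.

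CHD5 encodes a chromatin remodeller of neurons that lies in a part of chromosome 1 often lost in neuroblastoma. The gene spans 6101787 to 6180321 of chromosome 1, or 78.5 kb. Its site at position 6175272, on the minus strand, lay 5.05 kb from the upper end by coordinate, at 93.6% of the length counted from the lower end. No start or orientation was assigned to CHD5, which is not in the table of start windows. C was read in 4 of 12 reads in library 1 and in 3 of 13 in library 2, shares of 33.3% and 23.1% (mean 28.2% ± 7.25, SD, n = 2). The 3 reads in library 2 were the fewest C reads at any of the 6 sites, and 3 is also the fewest at any listed site.

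CAMTA1 encodes a calmodulin-binding transcription activator that is strongly expressed in the brain. The gene spans 6785454 to 7769706 of chromosome 1, or 984.3 kb. Its site at position 7654829, on the plus strand, lay 869.4 kb downstream of the first annotated start, at 88.3% of the length. The other 4 annotated starts lay further on, with the site 14.9, 14.9, 25.3 and 49.9 kb upstream of them, so of the 5 starts only the first lies before it. Whether transcripts from that start extend to the site was not examined. C was read in 10 of 25 reads in library 1 and in 6 of 23 in library 2. The share was 40.0% in library 1 and 26.1% in library 2 (mean 33.0% ± 9.84, SD, n = 2), and with 48 reads over both libraries this was the best covered of the 6 sites.

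**Figure D1:**
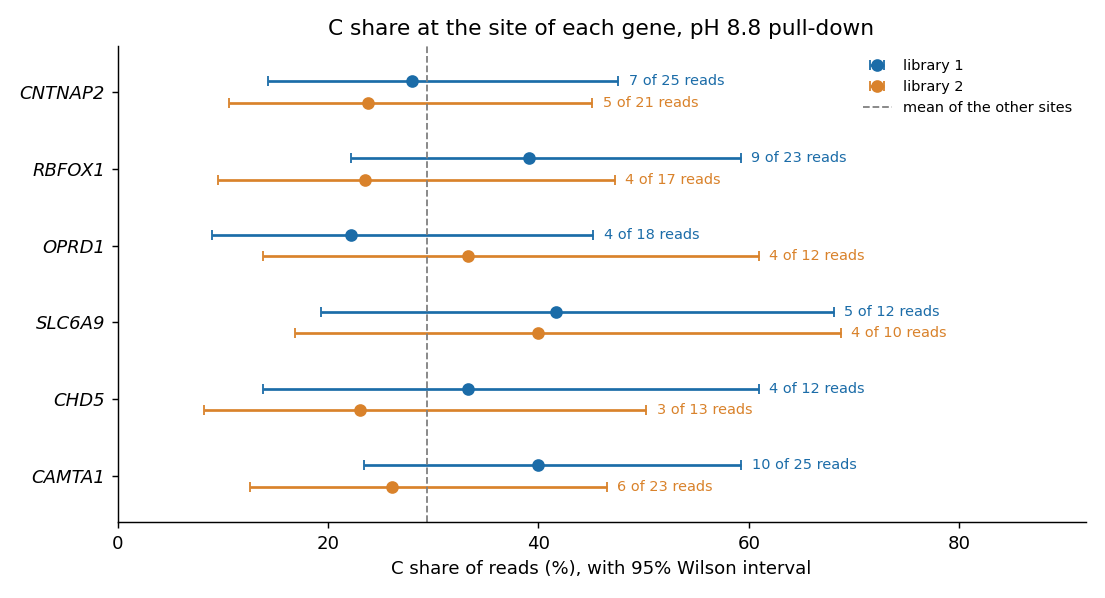
C share (%, x axis) at the site of each gene in library 1 (blue) and library 2 (orange) of the pH 8.8 pull-down, with 95% Wilson intervals and the reads behind each value; the dashed line is the mean of the other 961 sites, 29.4%. All 12 intervals include the dashed line, and the SLC6A9 site has the highest share in each library.

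The depth leaves these shares wide. With the reads of both libraries added, the SLC6A9 site had 9 C reads of 22, a share of 40.9% with a 95% Wilson interval from 23.3 to 61.3%. The CAMTA1 site had 16 of 48 (33.3%, 21.7 to 47.5%) and the RBFOX1 site 13 of 40 (32.5%, 20.1 to 48.0%). The CHD5 site had 7 of 25 (28.0%, 14.3 to 47.6%), the OPRD1 site 8 of 30 (26.7%, 14.2 to 44.4%) and the CNTNAP2 site 12 of 46 (26.1%, 15.6 to 40.3%). In that order, from SLC6A9 to CNTNAP2, every interval overlaps every other, so the order of the 6 was not resolved at this depth. These intervals cover counting error only and treat each read as an independent molecule. Reads copied by PCR are not independent, so the intervals may be too narrow.

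Among all 967 sites, the SLC6A9 site stood near the top by summed share, with 18 sites above it. The CAMTA1 site had 151 sites above it and the RBFOX1 site 210. CHD5, with 511 above, stood just below the middle of the list, and OPRD1, with 624, and CNTNAP2, with 664, stood in its lower part. By summed coverage the order was another: 53 sites were better covered than that of CAMTA1, 70 than that of CNTNAP2 and 140 than that of RBFOX1, against 512 for OPRD1, 785 for CHD5 and 913 for SLC6A9. The site with the highest share thus had close to the lowest coverage in the table.

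The table itself limits these values. Every listed site has at least 10 reads and at least 3 C reads in each library, and shares between 20.5 and 48.3%. A lower limit of 20% is assumed here, just under the lowest listed share, because the processing notes state no rule for calling sites. At 10 to 25 reads a site needs 3 to 6 C reads to exceed 20%. In library 2 the sites of CNTNAP2, RBFOX1 and CHD5 held exactly that lowest number, with 5, 4 and 3 C reads, and the other 3 held 1 read more. This was common in the table: of all 967 sites, 47.9% held their lowest number in library 2 and 78.8% lay within 1 read of it. In library 1 only OPRD1 was at its lowest number, with 4 C reads of 18, while RBFOX1 and CAMTA1 each lay 4 reads above theirs. Of all 967 sites, 51.2% held their lowest number in library 1. At the upper end, the SLC6A9 site was covered by 12 reads in library 1 and 10 in library 2. In either library, 1 more C read would have taken its share past 48.3%. It thus held the most C reads that the listed range allows at its coverage, so its high share and small gap are coarse values. Positions below these limits are not listed, and their values were not analysed here.

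**Figure D2:**
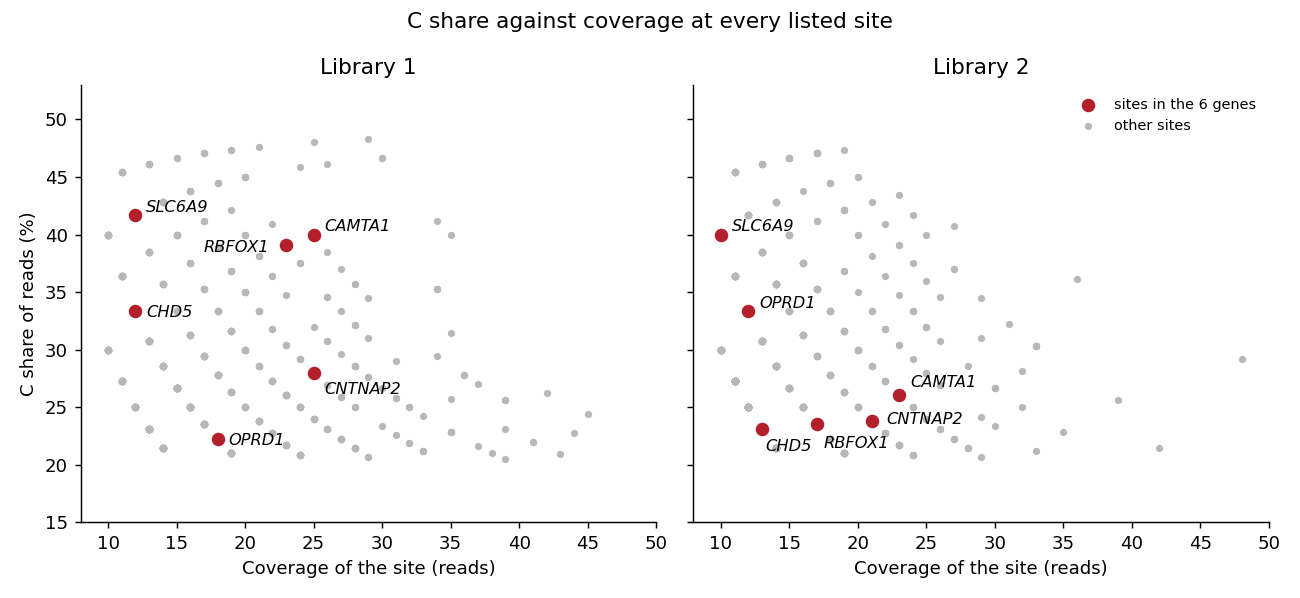
C share (%, y axis) against coverage (reads, x axis) for the sites of the 6 genes (red, named) and the other 961 sites (grey; points with equal counts coincide), with library 1 on the left and library 2 on the right. CAMTA1 and RBFOX1 lie at 40.0% and 39.1% in library 1 and at 26.1% and 23.5%, near the lower edge, in library 2.

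Whether the libraries differed at a site was tested with the two-sided Fisher exact test on C and other reads over all 967 sites, with Benjamini-Hochberg adjustment. None of the 6 sites passed, and the background was the same: 0 of 967 sites, or 0%, passed at an adjusted p under 0.05, and 0 at an unadjusted p under 0.05. A likelihood-ratio (G) test also called 0 sites at either threshold. The limits of the table keep all shares within a narrow band, and the lowest exact p at any of the 967 sites was 0.151. Within that band and at this coverage, either test had little or no room to call a site. The 0 calls therefore do not show that the libraries had equal levels. The lowest p among the 6 was that of RBFOX1 (exact p = 0.333, adjusted p = 1), where library 1 minus library 2 was 15.6 percentage points with a 95% Newcombe interval from -13.6 to 40.1. CAMTA1 followed with 13.9 points (-12.4 to 37.5, exact p = 0.368, adjusted p = 1).

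At the other sites the difference was 10.3 points for CHD5 (95% interval -23.2 to 41.6), 4.19 points for CNTNAP2 (-21.1 to 27.8), 1.67 points for SLC6A9 (-34.7 to 36.8) and -11.1 points for OPRD1 (-41.7 to 19.1). Each of the 6 intervals includes 0, and the narrowest, that of CNTNAP2, still runs to 27.8 points, so these reads do not separate equal levels from sizeable differences. The gap at RBFOX1 was wide for the table, with 111 of 967 sites showing a wider one, and that at SLC6A9 narrow, with 801 showing a wider one. Library 1 had the higher share at 5 of the 6 sites, whereas it did so at 405 of all 967 sites (41.9%), with 37 sites equal; this is a count over 6 genes and was not tested.

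**Figure D3:**
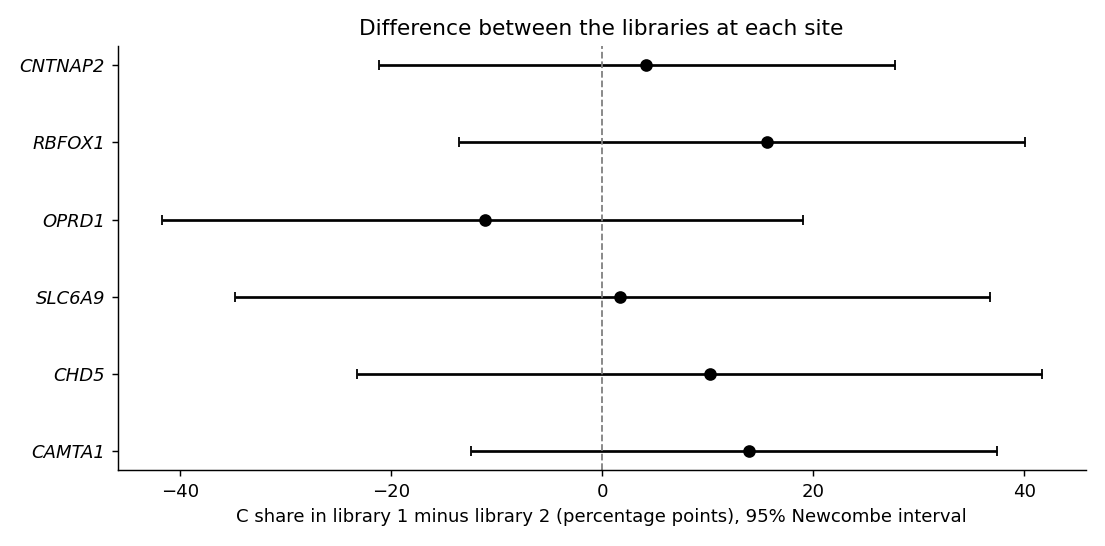
Difference in C share between library 1 and library 2 (percentage points, x axis) at the site of each gene, with 95% Newcombe intervals; the dashed line marks 0. All 6 intervals cross 0, and the OPRD1 site alone has its point to the left of the line.

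Set against the rest of the table, the 6 sites did not keep 1 direction in both libraries. In library 1 they held 39 C reads of 115, and their mean share was 34.1% ± 7.70, against 28.8% ± 6.68 at the other 961 sites (SD over sites). In library 2 they held 26 C reads of 96, and their mean share was 28.3% ± 6.89, against 30.0% ± 6.73 at the other sites. The difference was therefore 5.30 points in library 1 and -1.70 points in library 2, or 1.80 ± 4.95 points over both (SD, n = 2), smaller than its spread between libraries. Without the SLC6A9 site it was -0.13 points, so its sign rests on that gene. The mean over the 6 sites and both libraries was 31.2% ± 4.07, against 29.4% ± 0.878 at the other sites (SD, n = 2 libraries). Mean coverage was 19.2 reads in library 1 and 16 in library 2 at the 6 sites, against 17.4 and 15.3 at the others. No test is given, because the genes were chosen with the table in view.

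The 6 genes fall into 2 size classes. RBFOX1, CNTNAP2 and CAMTA1 are among the longest annotated genes: of 513 protein-coding genes with a site, 0, 1 and 13 were longer than these, and of all 20056 annotated protein-coding genes 0, 1 and 70 were. RBFOX1 and CNTNAP2 are also known as genes of common fragile sites. CHD5, OPRD1 and SLC6A9 are shorter, at 78.5, 59.1 and 35.0 kb. The median was 78.4 kb over the 513 genes with a site and 24.1 kb over all protein-coding genes. Each of these genes exceeded the second median, and of all protein-coding genes 4268, 5448 and 8059 were longer than them, in that order. A long gene offers more positions at which a site can fall, and no excess or deficit is read from these counts.

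**Figure D4:**
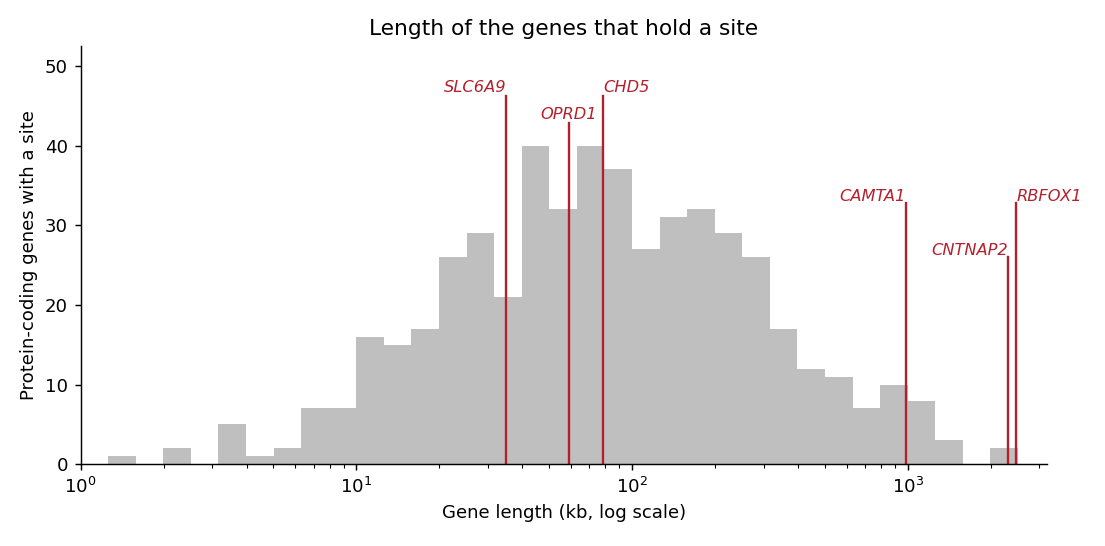
Length (kb, log scale) of the 513 protein-coding genes that hold a site (grey bars, number of genes), with red lines at the 6 genes described; line height has no meaning. CAMTA1, CNTNAP2 and RBFOX1 lie at the long end, from 984.3 to 2473.6 kb, and the other 3 near the middle.

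Measured along the chromosome, all 6 sites lay past the midpoint of the gene, at 68.2 to 93.6% of the length from the lower end, whereas 305 of 559 pairs of a site and a protein-coding gene (54.6%) did so. This feature was noticed in the 6 sites and was not tested. It is not a place along the gene shared by all 5 genes with listed starts, since SLC6A9 differs. In CNTNAP2, RBFOX1, OPRD1 and CAMTA1, which are read from the plus strand, it is the far part of the annotated span. The RBFOX1 and CAMTA1 sites nevertheless lay upstream of some listed starts of their genes. In SLC6A9, read from the minus strand, it is the part just after the listed start. None of the sites in the 5 genes with listed starts lay in an annotated start window of its gene (250 bases before to 50 after a start), CHD5 having no listed window, and 5 of all 967 sites lay in a window.

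The T of the listed site stood on the coding strand in CNTNAP2, SLC6A9 and CAMTA1 and on the template strand in RBFOX1 and OPRD1, and the orientation of CHD5 was not assigned. Over 440 pairs of a site and a protein-coding gene of known orientation, 226 (51.4%) had it on the coding strand. The 5 oriented genes were thus divided between the strands, as were the pairs over the whole table. By chromosome strand, 2 of the 6 sites were on plus and 4 on minus.

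**Figure D5:**
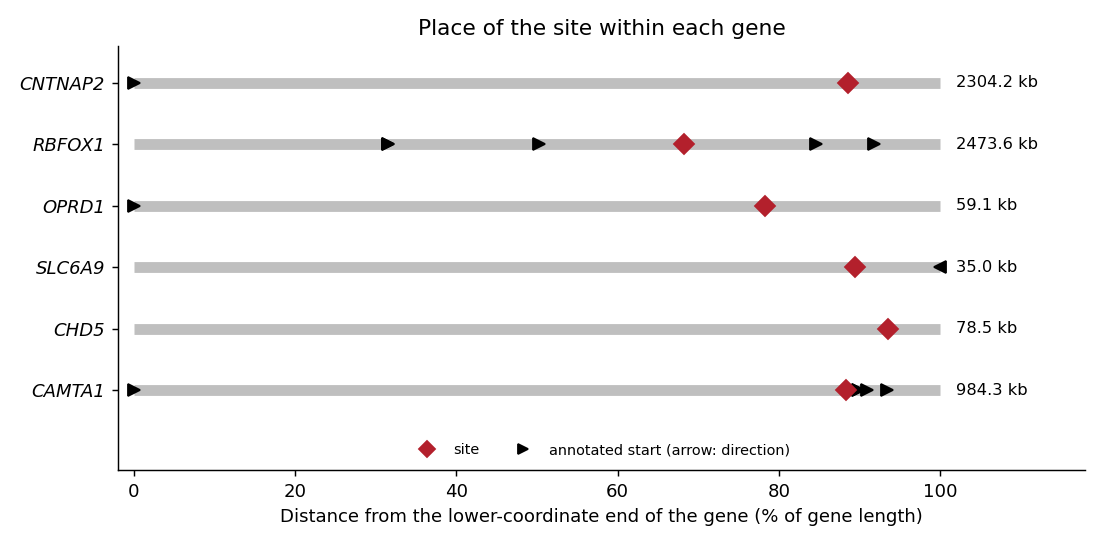
Place of the site (red diamond) in each gene, as a percentage of gene length from the lower-coordinate end (x axis), with annotated starts as black arrowheads that point along transcription; starts a few kb apart coincide, and CHD5 has no listed start. The 6 diamonds lie between 68.2 and 93.6%, with the SLC6A9 site close behind its listed start at the right end and the CAMTA1 site just before 4 later starts.

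The 6 sites had no close neighbour. The nearest other site was 783.8 kb from that of OPRD1, 791.3 kb from that of SLC6A9, 848.9 kb from that of RBFOX1 and 1005.7 kb from that of CNTNAP2. Their median distance was 927.3 kb, beside 382.5 kb over all sites. Such distances were common in the table: 331 of the 967 sites lay farther from their neighbour than the OPRD1 site, and 188 farther than the sites of CHD5 and CAMTA1. The neighbour of the CNTNAP2 site lay in ZNF398, a zinc finger gene, and that of the OPRD1 site in the gene LOC107984934. The neighbours of the SLC6A9 and RBFOX1 sites lay outside annotated genes, and that of RBFOX1 was 61.9 kb past the end of the gene, the closest that an outside site came to any of the 6 genes.

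CHD5 and CAMTA1 are each other's nearest entries. Their sites, 1479.6 kb apart on chromosome 1, have no listed site between them, and the T lies on the minus strand in CHD5 and on the plus strand in CAMTA1. Chromosome 1 held 4 of the 6 sites, out of 45 in the table, and chromosomes 7 and 16 held 1 each, out of 56 and 57. Gene density around the sites varied widely, with 7 annotated genes within 500 kb of the RBFOX1 site, 16 for CNTNAP2, 19 for CAMTA1, 30 for CHD5, 31 for OPRD1 and 38 for SLC6A9. Each of these counts includes the gene that holds the site. The median over all sites, some of which lie outside genes, was 31, a value that the OPRD1 site matched and the SLC6A9 site alone exceeded.

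The closest relatives of the 6 genes held no site. Across 26 genes of the 6 families, the 6 chosen genes held a site and 0 of the other 20 did. Of all protein-coding genes, 513 of 20056 (2.56%) held a site. The other family genes comprised 5 of contactin-associated proteins, 2 of RBFOX splicing factors, 3 of opioid receptors, SLC6A5 (the neuronal glycine transporter), 8 of CHD remodellers and CAMTA2. They span 3904.6 kb together, from 17.5 kb in CNTNAP1 to 895.9 kb in CNTNAP5, and 15 of them are longer than SLC6A9. The nearest sites to them lay 57.6 kb from CNTNAP1, 79.2 kb from CAMTA2 and 101.2 kb from CHD2. A gene without a listed site may still hold T read as C, since a position is listed only within the limits of the table, and no enrichment or deficit is read from the counts.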

How the data were processed

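The 6 libraries were made from genomic DNA of CAL-62 cells. The submitters' processing notes list hg38, Trim Galore, Bowtie2 and MACS2 2.2.6, without their roles; the rule by which sites were called is not stated there. The deposited counts give coverage and C reads at every site for each pH 8.8 library, per the file headers. Per the file headers, the deposited C share is a fraction, the quotient of these, and it equalled their quotient within 1e-09. A second deposited table, without a header, gave the reference base.

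Sites were assigned to genes by the RefSeq start and end. Starts and strands of genes came from the RefSeq table of start windows, which lists 5 of the 6 genes. Shares have 95% Wilson intervals, differences Newcombe intervals. Libraries were compared by Fisher's exact test over all 967 sites with Benjamini-Hochberg adjustment. The procedure was tried on simulated counts with wider differences between libraries than the limits of the table allow. That trial therefore does not show what the test can detect at the listed sites. Coverage at the 6 sites was 10 to 25 reads per library.

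Members, family lists and alternatives were chosen with earlier results of these data known. The genes named are the 6, their families, and the genes at the nearest other site. Alternatives were a minimum of 15 reads, summed reads, other comparison sites, genes extended by 10 kb, a G test, and leaving out each library or, added after seeing the data, each site. No sequence around the sites was used here. Calculations ran in Python 3.11.15 with scipy 1.17.1, pandas 2.3.3 and numpy 2.4.6; figures were drawn with matplotlib 3.10.9.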

Additional observations from a re-analysis of the deposited data

How the results depend on the processing

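At a minimum of 15 reads in each library, 3 of the 6 sites remained (CNTNAP2, RBFOX1 and CAMTA1), and the number of family genes with a site was likewise 3. The mean C share of the 6 sites was 28.3 to 34.1% without each replicate in turn, which with 2 libraries is each library's own value and no check of stability, and 29.3 to 32.2% without each site. The difference from the other sites ran from -1.70 (without replicate 1) to 5.30 points without each replicate, and from -0.13 (without SLC6A9) to 2.85 points without each site; it was 1.5 points against sites of the same chromosomes. The difference in mean coverage ran from 0.745 to 1.82 reads. Extending genes by 10 kb changed no count. No paired analysis was possible because the values used come from 1 group. Coverage limits every share, and background at pH 7.2 and in input was not analysed here.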
